A study of Mus musculus with 17 samples.

Results

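The genes described here are the xenobiotic-handling enzymes of mouse kidney, namely the cytochrome P450 (CYP) genes of families 1 to 4, the UDP-glucuronosyltransferase (UGT) genes of families 1 to 3, the glutathione S-transferase (GST) genes of the alpha, kappa, mu, omega, pi and theta classes, and the sulfotransferase (SULT) genes. They were chosen by gene symbol alone from the protein-coding genes of the GENCODE annotation of GRCm38. The rule uses no measured value, but it was set with earlier results of these data known. This gave 144 members of the 35971 genes with transcripts in the deposited table, of which 81 were Cyp, 21 Ugt, 21 Gst and 21 Sult genes.

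The study sequenced RNA from whole kidneys of 17 mice in 5 genotypes, each library being 1 mouse kidney sample as far as the labels say. All 17 mice carried a PRCC-TFE3 fusion gene, found in translocation renal cell carcinoma, behind a lox-stop-lox cassette (lsl-PRCC-TFE3 KI). The 4 Cre(-) controls had no Cre recombinase (KSP-Cre(-)), and replicates 1 and 2 of them also carried HIF1af/f alleles, whereas replicates 3 and 4 did not. The 3 KI mice had KSP-Cre(+) and no floxed Hif allele. The 4 Hif1a KO mice had KSP-Cre(+) with HIF1af/f, the 3 Hif2a KO mice had KSP-Cre(+) with HIF2af/f, and the 3 DKO mice had KSP-Cre(+) with both. The Cre was driven by the Cadherin 16 (Ksp) promoter, which is active in tubular epithelium, so that other kidney cells keep the silent allele and intact Hif genes. The study killed its mice at 8 months of age. The sex and age of each sequenced mouse were not given in the labels.

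Foreign compounds are commonly made more polar by an oxidation step, in which CYP enzymes take electrons from the reductase POR, and then conjugated to glucuronic acid by UGT, to glutathione by GST or to sulfate by SULT enzymes. The same families act on endogenous lipids and hormones, since Cyp2j and Cyp2c enzymes epoxidise arachidonic acid, Cyp4a and Cyp4f enzymes hydroxylate fatty acids and leukotrienes, and UGT1A1 conjugates bilirubin. In the kidney these enzymes are found chiefly in the proximal tubule, beside the organic anion and cation transporters that deliver their substrates. Each Ugt1a gene has a first exon and promoter of its own and shares its downstream exons with the rest of the cluster.

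Sequences upstream of 5 members that the results turn on are shown first, because they come from 2 gene clusters whose members moved in opposite directions: Cyp2a4 fell and Cyp2a5 rose in KI kidneys, and Ugt1a2 fell while Ugt1a9 and Ugt1a10 rose. Other members lie between Cyp2a4 and Cyp2a5 and between Ugt1a9 and Ugt1a2. Each is the 250 bases before the transcription start in RefSeq (GRCm38.p6), written 5′ to 3′ on the strand of the gene. Cyp2a4 and Cyp2a5, a testosterone hydroxylase and a coumarin hydroxylase of the Cyp2 cluster, come from chr7:26306942-26307191 and chr7:26835089-26835338 on the plus strand. Capitals mark the bases that differ from the aligned partner or stand against a gap.
Cyp2a4: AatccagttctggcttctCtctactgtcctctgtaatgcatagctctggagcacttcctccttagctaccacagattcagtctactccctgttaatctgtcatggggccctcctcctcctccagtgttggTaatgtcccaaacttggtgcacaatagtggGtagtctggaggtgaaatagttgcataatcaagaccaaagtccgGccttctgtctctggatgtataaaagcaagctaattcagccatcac
Cyp2a5: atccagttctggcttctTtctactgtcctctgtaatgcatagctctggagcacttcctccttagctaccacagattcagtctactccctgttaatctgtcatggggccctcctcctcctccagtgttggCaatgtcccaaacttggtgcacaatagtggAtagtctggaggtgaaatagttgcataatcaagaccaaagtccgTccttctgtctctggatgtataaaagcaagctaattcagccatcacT
Of 251 aligned positions, 245 (97.6%) were identical, with 4 mismatches and 2 gap positions.

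Ugt1a9 and Ugt1a10 come from chr1:88070529-88070778 and chr1:88055161-88055410 on the plus strand, with capitals used in the same way. Ugt1a2 comes from chr1:88200361-88200610 on the plus strand and holds none of the motifs searched.
Ugt1a9: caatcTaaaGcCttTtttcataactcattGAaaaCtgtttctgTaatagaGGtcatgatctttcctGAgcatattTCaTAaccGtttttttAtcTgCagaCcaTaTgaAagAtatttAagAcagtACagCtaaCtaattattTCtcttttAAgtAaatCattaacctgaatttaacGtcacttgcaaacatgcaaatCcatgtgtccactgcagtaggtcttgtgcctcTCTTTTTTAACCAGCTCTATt
Ugt1a10: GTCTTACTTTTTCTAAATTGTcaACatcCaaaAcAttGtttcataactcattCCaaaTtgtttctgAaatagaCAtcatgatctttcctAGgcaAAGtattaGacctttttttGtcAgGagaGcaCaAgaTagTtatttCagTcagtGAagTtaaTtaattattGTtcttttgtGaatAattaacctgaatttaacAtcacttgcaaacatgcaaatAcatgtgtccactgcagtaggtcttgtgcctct
Ugt1a2: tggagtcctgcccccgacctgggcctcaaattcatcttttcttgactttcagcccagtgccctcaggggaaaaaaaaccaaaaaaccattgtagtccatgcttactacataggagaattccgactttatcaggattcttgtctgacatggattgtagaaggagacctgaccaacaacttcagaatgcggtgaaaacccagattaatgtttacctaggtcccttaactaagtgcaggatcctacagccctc
Ugt1a9 and Ugt1a10 were 69.2% identical over their alignment, whereas Ugt1a2 and Ugt1a9 were 49.5% identical. Over 4637 pairs of members of different families, the median was 49.0% and the highest value 56.1%, so the value for Ugt1a2 and Ugt1a9 lay near that median.

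The 17 libraries held 16504419 to 24668827 counts (median 18635282). The 10 listed proximal tubule markers were all lower in KI than in Cre(-) kidneys. Their summed level was 18461 to 24389 CPM (counts scaled to library size, scaled by TMM factors) in Cre(-), 736 to 863 in KI, 946 to 2658 in Hif1a KO, 720 to 2356 in Hif2a KO and 1559 to 2616 in DKO kidneys. Other marker sums also differed without overlap. In Cre(-) and KI kidneys they were 4958 to 6553 and 792 to 1425 CPM for the thick ascending limb, 2352 to 3162 and 160 to 242 CPM for the distal convoluted tubule, and 170.3 to 226 and 16.3 to 37.1 CPM for podocytes. The sums that were higher in KI kidneys were those of macrophages (117 to 139 and 1288 to 1345 CPM), tubular injury (5.30 to 7.75 and 178 to 470.3 CPM), fibroblasts (98.8 to 136 and 283 to 302 CPM) and hepatocytes (53.7 to 68.6 and 114 to 168 CPM). Of the 5 hepatocyte markers, however, 1 was called higher and 2 were called lower (median log2 fold change -0.083), so that sum does not stand for its list. The part of these cell types in the results was not tested. In whole kidney RNA, fewer cells of a type and less RNA per cell cannot be told apart. Whole-gene counts do not check a deletion of single exons: Hif1a was at 163 to 198 CPM in Hif1a KO and 184 to 232 CPM in KI kidneys, and Epas1, which encodes HIF2a, at 137 to 149 CPM in Hif2a KO and 173 to 192 CPM in KI kidneys. Neither change passed edgeR's quasi-likelihood test (adjusted p = 0.372 for Hif1a and 0.0788 for Epas1). P-values here set a difference against the spread between mice within groups, estimated over all groups together, and do not measure the spread of each group by itself.

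Of the 144 members, 86 passed the filter on low counts and were tested, namely 44 Cyp, 14 Ugt, 19 Gst and 9 Sult genes. The other 58 were low in every group, and 10 of these had a rounded count of 0 in all 17 libraries. Levels between genes were compared in TPM, a unit that allows for transcript length. In Cre(-) kidneys 64 members had a mean of at least 1 TPM, and in the KI, Hif1a KO, Hif2a KO and DKO kidneys 66, 68, 67 and 68 did.

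The first comparison asked how the enzymes differed between kidneys with and without the expressed fusion. In KI kidneys the CYP, alpha-class GST and Ugt3a genes that are most abundant in the control kidney were far lower. Higher in KI kidneys were 5 of 8 tested Ugt1a, 5 of 7 Cyp4f and 2 of 3 Gstp genes, against 31.6% of all genes. The 2 tested Cyp2a genes split, with 1 higher and 1 lower. Of 9 tested Sult genes 3 were higher and 3 lower, near the shares of all genes (31.6% higher and 29.3% lower). The summed level of all members was 7656 ± 1237 TPM in Cre(-) (SD, n = 4) and 4236 ± 326 TPM in KI kidneys (SD, n = 3). The Cyp sum was 3196 ± 669 TPM in Cre(-) and 993 ± 209 TPM in KI kidneys. The Gst sum differed less on this scale, at 2496 ± 234 TPM and 2116 ± 184 TPM. The median of all genes was higher in KI kidneys on the log2(TPM + 1) scale, by 0.38. On the CPM scale the Gst sum was 1644 to 2039 in Cre(-) and 1020 to 1323 in KI kidneys, without overlap. The sum of all members was there 10086 to 13664 CPM in Cre(-) and 3357 to 4175 CPM in KI kidneys.

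The order of the members by level also differed between the groups. In Cre(-) kidneys the highest mean levels were those of Gsta2, an alpha-class GST (733 ± 114 TPM), Ugt1a2 (703 ± 154 TPM), the epoxygenase Cyp2j5 (613 ± 29.5 TPM) and the mu-class Gstm1 (543 ± 28.6 TPM). These neighbours in the order did not differ beyond their spread except Cyp2j5 and Gstm1, whose ranges were 586 to 651 and 501 to 565 TPM. In KI kidneys Gstm1 was first (795 ± 93.0 TPM) and Gstp1 second (317 TPM). They were followed by Sult1d1 (257 TPM), Ugt1a9 (251 TPM) and Cyp2a5 (224 TPM).

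By the edgeR quasi-likelihood fit of 17011 genes (p-values adjusted by Benjamini-Hochberg), 68 of the 86 tested members (79.1%) differed between KI and Cre(-) kidneys at an adjusted p under 0.05, against 60.9% of all genes tested. Of these, 23 rose (26.7%, against 31.6% of all genes) and 45 fell (52.3%, against 29.3%). The groups did not overlap for 65 members (75.6%, against 56.6%). The median log2 fold change was -0.63 over the members and 0.03 over all genes. It was -1.51 for Cyp, -0.64 for Gst, 0.42 for Ugt and 0.03 for Sult genes. With the proximal tubule marker score as a covariate, 2 members passed, against 0.911% of all genes, and the median of the members was 0.20. That score (the mean log2 level of the markers) was 8.90 to 9.15 in Cre(-) kidneys and 4.23 to 6.35 in all others, so score and expressed fusion cannot be told apart in that comparison.

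**Figure D1:**
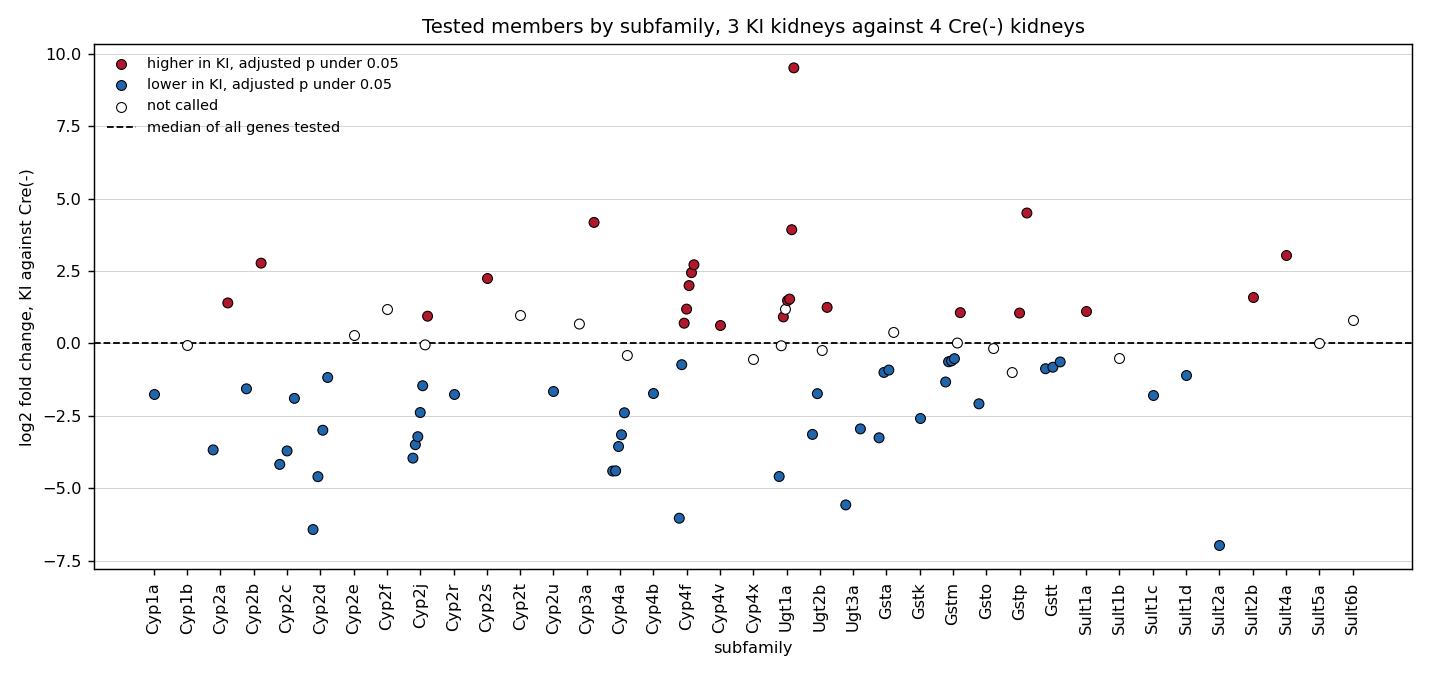
Log2 fold change of each tested member in KI against Cre(-) kidneys (vertical axis) by subfamily (horizontal axis), each point being 1 gene. Filled points had an adjusted p under 0.05, the dashed line is the median of all genes tested, and the plot shows the Cyp2c, Cyp2d and Cyp4a points below 0, with Ugt1a points on both sides of it from -4.60 to 9.52.

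The epoxygenase genes of arachidonic acid fell in KI kidneys. Cyp2j5, at chr4:96628773-96664154, was at 1285, 1203, 1332 and 1267 CPM in the 4 Cre(-) kidneys and at 129, 54.4 and 62.0 CPM in the 3 KI kidneys. Every KI kidney thus lay below every Cre(-) kidney, and the gene was 15.6-fold lower (log2 fold change -3.96, SE 0.38, adjusted p = 3.5e-07). Cyp2c23, another epoxygenase, was at 145, 150.4, 134 and 162 CPM in Cre(-) and 9.94, 6.09 and 8.50 CPM in KI kidneys, again without overlap (log2 fold change -4.18, SE 0.35). Cyp2j11 was at 247 to 270.3 CPM and 21.6 to 24.9 CPM (log2 fold change -3.50, SE 0.41), and the low Cyp2c69 at 0.947 to 2.40 CPM and 0 to 0.287 CPM (log2 fold change -3.71, SE 0.97). In all, 5 of 7 tested Cyp2j genes and 3 of 3 tested Cyp2c genes fell. The exception among the called Cyp2j genes was the low Cyp2j13 at 1.03 to 2.78 CPM in Cre(-) and 2.93 to 3.77 CPM in KI kidneys (log2 fold change 0.94, SE 0.29). Cyp2j6 kept within the spread, at 48.8 to 60.0 and 48.0 to 52.9 CPM.

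The fatty acid hydroxylases of the Cyp4a cluster fell in 5 of 6 tested genes. Cyp4a14 was at 658, 1820, 618 and 576 CPM in Cre(-) and 25.6, 20.8 and 83.4 CPM in KI kidneys (log2 fold change -4.41, SE 0.94, adjusted p = 8.2e-04). Cyp4a10 was at 510.3, 1486, 541 and 495 CPM in Cre(-) and 67.7, 68.3 and 119 CPM in KI kidneys (log2 fold change -3.15, SE 0.65). Replicate 2 stood above the other Cre(-) kidneys for both genes, and all 4 lay above the KI kidneys. Cyp4a31 had the same order, with 299 to 578 CPM in Cre(-) and 12.3 to 24.5 CPM in KI kidneys. The sixth gene, Cyp4a12b, overlapped between the groups at 3.03 to 13.5 and 3.39 to 7.19 CPM (adjusted p = 0.393). Cyp4b1, which lies in the same cluster, fell from 285 to 536 CPM to 73.9 to 177 CPM (log2 fold change -1.72, SE 0.36).

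Cyp2d genes, a subfamily that oxidises many drugs, fell in 4 of 4 tested cases. Cyp2d12 was at 203, 169, 177 and 209.7 CPM in Cre(-) and at 3.05, 1.24 and 2.34 CPM in KI kidneys, which was 86.2-fold lower (log2 fold change -6.43, SE 0.68). Cyp2d26 was at 278 to 407 CPM and 7.32 to 20.3 CPM (log2 fold change -4.60, SE 0.61). Cyp2d9 was at 30.6 to 42.9 CPM and 2.21 to 7.82 CPM (log2 fold change -2.997, SE 0.52). None of these 3 genes overlapped between the groups.

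The Cyp4f genes, which hydroxylate leukotrienes and long fatty acids, were split. Of 7 tested, 5 rose and 2 fell, and their summed counts did not differ (log2 fold change 0.05, adjusted p = 0.63). Cyp4f14 was at 12.1, 7.71, 9.86 and 11.4 CPM in Cre(-) and at 0.115, 0.0539 and 0.285 CPM in KI kidneys (log2 fold change -6.04, SE 0.60). Cyp4f13 fell less, from 35.9 to 49.3 CPM to 23.7 to 28.3 CPM (log2 fold change -0.73, SE 0.11). Cyp4f18, a leukotriene-metabolising form of myeloid cells, was instead at 1.23, 0.910, 0.927 and 0.758 CPM in Cre(-) and 3.79, 8.35 and 3.54 CPM in KI kidneys (log2 fold change 2.45, SE 0.30). The macrophage marker sum moved in the same direction as Cyp4f18, and its part in that result was not tested. Cyp4f39 rose as well (log2 fold change 2.00, SE 0.54, adjusted p = 0.0045) at low levels of 0.265 to 0.411 CPM in Cre(-) and 0.456 to 2.26 CPM in KI kidneys. On chromosome 17 the 8 Cyp4f genes lie within chr17:32452723-32947402, where 4 rose, 2 fell and 2 were not tested.

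The Cyp2a pair, whose upstream sequences are printed above, moved in opposite directions. Cyp2a4, at chr7:26307169-26315088, was at 453, 322, 418 and 373 CPM in Cre(-) and 42.2, 19.7 and 29.8 CPM in KI kidneys (log2 fold change -3.68, SE 0.42, adjusted p = 2.3e-06). Cyp2a5, at chr7:26835305-26843548, was at 61.0, 42.9, 64.5 and 100.3 CPM in Cre(-) and 207, 195 and 131 CPM in KI kidneys (log2 fold change 1.40, SE 0.27, adjusted p = 3.4e-04). Neither gene overlapped between the groups. On the TPM scale Cyp2a4 was above Cyp2a5 in every Cre(-) kidney (227 to 286 against 35.2 to 97.5 TPM) and below it in every KI kidney (18.5 to 39.7 against 149 to 278 TPM). Of all 75-base windows of their transcripts, 77.9% for Cyp2a4 and 77.7% for Cyp2a5 occurred in no other gene's transcripts, so most reads could be told apart.

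Cyp2s1, a dioxin-inducible epithelial P450 of the same chromosome 7 cluster (chr7:25802475-25816913), was at 25.8, 22.5, 19.2 and 28.0 CPM in Cre(-) and 77.3, 101 and 163 CPM in KI kidneys. All KI kidneys lay above all Cre(-) kidneys (log2 fold change 2.25, SE 0.22, adjusted p = 3.5e-07). Within chr7:25802475-27158668 the 13 Cyp2 members gave 3 that rose, 2 that fell, 2 that did not pass and 6 not tested. Cyp2b9, a steroid-metabolising form of this cluster, was low at 1.85 to 2.78 CPM in Cre(-) and fell to 0.592 to 0.970 CPM in KI kidneys (log2 fold change -1.57, SE 0.31).

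Other P450 genes with known single roles varied. The vitamin D hydroxylase Cyp2r1 fell from 1.01 to 2.25 CPM to 0.230 to 0.700 CPM (log2 fold change -1.73, SE 0.47, adjusted p = 0.0045), and the fatty acid hydroxylase Cyp2u1 fell from 5.87 to 6.51 CPM to 1.78 to 2.24 CPM (log2 fold change -1.63, SE 0.22). Cyp1a1, the classical target of the aryl hydrocarbon receptor AHR, was low at 0.794 to 1.18 CPM in Cre(-) and 0 to 0.539 CPM in KI kidneys (log2 fold change -1.74, SE 0.62, adjusted p = 0.025). Cyp1b1, another target of this receptor, differed by less than the spread, at 50.6 to 57.3 and 47.1 to 61.4 CPM (adjusted p = 0.812). Cyp3a13, the one Cyp3a gene of the fixed list, was at 0.480 to 1.06 CPM and 0.915 to 1.44 CPM (log2 fold change 0.67, SE 0.33, adjusted p = 0.088). The other of the 2 tested Cyp3a genes, Cyp3a57, was called higher in KI kidneys. A few low calls rested on single kidneys. Cyp1a1 had an adjusted p of 0.0559 to 0.0599 without Cre(-) replicate 2, KI replicate 1 or KI replicate 3, and Cyp3a13 passed without Cre(-) replicate 3 (adjusted p = 0.0451).

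The ethanol-oxidising Cyp2e1 rested on 1 kidney. It was at 131, 83.2, 181 and 223 CPM in Cre(-) and at 18.7, 490.5 and 53.3 CPM in KI kidneys, so KI replicate 2 lay above all controls and the other two lay below them (log2 fold change 0.28, SE 0.73, adjusted p = 0.76). Without KI replicate 2 it was -2.10 (adjusted p = 0.0044). Cyp2e1 is also expressed in fat, and the summed adipocyte markers (Adipoq, Plin1, Cidec and Retn) were at 459 CPM in KI replicate 2, at 13.6 and 30.6 CPM in the other KI kidneys and at 3.21 to 70.7 CPM in the 14 libraries of the other groups. The part of these cells in the Cyp2e1 value was not tested.

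The Ugt1a genes differed in which member supplied most of their summed level. Ugt1a2, at chr1:88200601-88218997, was at 1360.5, 1685, 1210.3 and 1193 CPM in Cre(-) and 70.2, 34.0 and 64.8 CPM in KI kidneys (log2 fold change -4.60, SE 0.53, adjusted p = 2.1e-06). Ugt1a9, at chr1:88070800-88218997, was at 0.617, 0.482, 0.794 and 0 CPM in Cre(-) and 378, 368 and 303 CPM in KI kidneys (log2 fold change 9.52, SE 0.38, adjusted p = 7.3e-11). Ugt1a10, at chr1:88055388-88219004, was at 11.7, 10.8, 23.3 and 8.27 CPM in Cre(-) and 216, 217 and 185 CPM in KI kidneys (log2 fold change 3.93, SE 0.26). None of the 3 overlapped between the groups. Ugt1a9 and Ugt1a10 were the 2 members still past the threshold with the proximal tubule score as a covariate (log2 fold changes 9.81 and 5.27).

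As shares of the summed Ugt1a TPM, Ugt1a2 made up 86.0, 86.1, 82.2 and 83.6% in the Cre(-) kidneys and 7.48, 3.75 and 7.54% in the KI kidneys. Ugt1a9 made up 0 to 0.0527% in Cre(-) and 35.6 to 40.9% in KI kidneys, and Ugt1a10 0.543 to 1.56% and 21.3 to 23.6%. The share of Ugt1a7c was 10.4 to 13.7% and 15.9 to 23.5%, while its own CPM overlapped at 238 to 292 and 217 to 292 (log2 fold change -0.08, SE 0.12). The summed counts of the cluster were lower in KI kidneys by -0.79 on the log2 scale (adjusted p = 1.4e-04). On the TPM scale the sum was 700.3 to 1078 in Cre(-) and 571 to 687 in KI kidneys, without overlap. The Ugt1a transcripts share exons, and 36.7% of 75-base windows of Ugt1a2 and 40.6% of Ugt1a9 were unique, so each share is an estimate from reads that were partly assigned by the counting software.

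**Figure D2:**
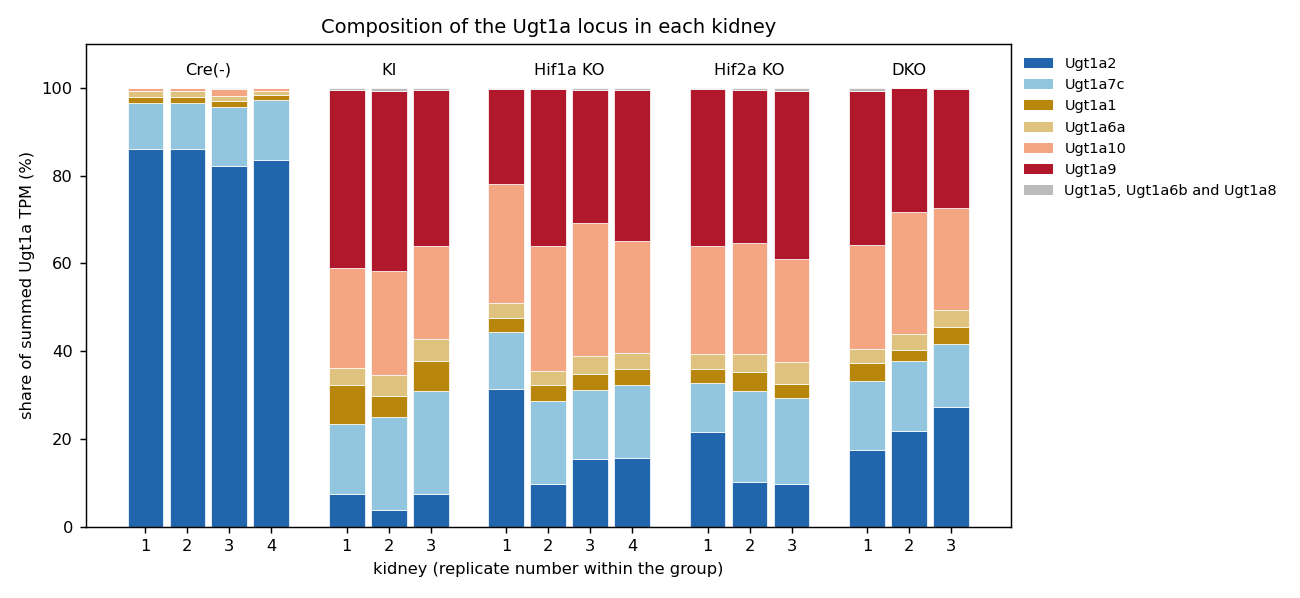
Share of the summed Ugt1a TPM (vertical axis, percent) taken by each Ugt1a gene in each of the 17 kidneys (horizontal axis, grouped by genotype). Ugt1a2 fills 82.2 to 86.1% of the bar in the Cre(-) kidneys and 3.75 to 31.3% in the others.

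Further Ugt1a genes rose from low levels. The bilirubin-conjugating Ugt1a1 was at 22.3, 28.4, 20.6 and 13.6 CPM in Cre(-) and 84.5, 42.7 and 57.7 CPM in KI kidneys (log2 fold change 1.53, SE 0.23). Ugt1a6a, a phenol-conjugating form, was at 18.8 to 34.4 CPM and 44.0 to 50.2 CPM (log2 fold change 0.92, SE 0.16), and Ugt1a6b at 0.617 to 3.31 CPM and 3.45 to 6.95 CPM (log2 fold change 1.48, SE 0.59). Neither of these overlapped. Outside the cluster, Ugt3a1, which uses N-acetylglucosamine, was at 333, 245, 199.5 and 202 CPM in Cre(-) and 5.00, 3.61 and 6.79 CPM in KI kidneys, 47.8-fold lower. Its neighbour Ugt3a2 was at 659.9 to 1049.6 CPM and 95.6 to 124 CPM (log2 fold change -2.95, SE 0.36). In the Ugt2b group Ugt2b38 fell (log2 fold change -3.14, SE 0.27) and the low Ugt2b37 rose (log2 fold change 1.25, SE 0.46). Ugt1a6b lost its call without Cre(-) replicate 1, 2 or 4 or KI replicate 2 (adjusted p = 0.0861 to 0.184), and Ugt2b37 without Cre(-) replicate 1, 3 or 4 or KI replicate 1 (adjusted p = 0.0533 to 0.0976).

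Among the GST genes 12 of 19 tested fell and 3 rose. Gsta2, the most abundant member in control kidneys, was at 515, 569.8, 408 and 473 CPM in Cre(-) and 40.8, 32.1 and 81.2 CPM in KI kidneys (log2 fold change -3.26, SE 0.40). The peroxisomal and mitochondrial Gstk1 was at 37.0 to 53.3 CPM and 6.95 to 8.50 CPM (log2 fold change -2.56, SE 0.25), and all 3 tested theta-class genes fell, with Gstt1 at 115 to 122 and 56.5 to 69.4 CPM. Gstm1 overlapped on the CPM scale at 423 to 501 and 401 to 546 CPM (log2 fold change 0.02, SE 0.10), although its mean TPM was higher in KI kidneys. The median of all genes was itself higher in KI kidneys by 0.38 on the log2(TPM + 1) scale. Gsto1, of the omega class, also overlapped (log2 fold change -0.18, SE 0.13), and the low Gsta1 was at 0 to 3.85 CPM in Cre(-) and 1.18 to 2.82 CPM in KI kidneys.

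The pi class was the GST group that rose. Gstp1, at chr19:4035407-4037985, was at 43.0, 55.5, 38.1 and 45.5 CPM in Cre(-) and 100.3, 81.3 and 102 CPM in KI kidneys, without overlap (log2 fold change 1.05, SE 0.14, adjusted p = 1.0e-05). Gstp3, at chr19:4057477-4059569, was at 0.137, 0.214, 0 and 0 CPM and at 1.38, 2.37 and 2.97 CPM (log2 fold change 4.51, SE 0.66). The third gene, Gstp2, was at or under 1.34 CPM in all of these kidneys, and 44.9% of its windows were shared with Gstp1. Gstm6 was the single mu-class gene that rose (2.54 to 4.04 CPM to 6.41 to 7.42 CPM).

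The sequences upstream of Gstp1 and Gstp3 hold letters of the hypoxia response element core, and are shown for that reason. They come from chr19:4037913-4038162 and chr19:4059448-4059697 on the minus strand of GRCm38.p6, and capitals mark ACGTG or GCGTG on either strand.
Gstp1: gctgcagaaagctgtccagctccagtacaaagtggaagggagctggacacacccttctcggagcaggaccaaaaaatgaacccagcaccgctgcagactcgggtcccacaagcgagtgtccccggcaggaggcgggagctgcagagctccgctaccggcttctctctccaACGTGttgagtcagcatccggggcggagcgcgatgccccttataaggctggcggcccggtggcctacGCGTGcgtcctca
Gstp3: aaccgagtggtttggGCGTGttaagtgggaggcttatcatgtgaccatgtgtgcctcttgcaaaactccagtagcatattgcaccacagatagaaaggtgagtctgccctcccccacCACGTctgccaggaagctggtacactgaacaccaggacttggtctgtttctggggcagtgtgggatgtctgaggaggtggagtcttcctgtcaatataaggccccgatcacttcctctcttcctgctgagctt
In the 250 bases before the start, ACGTG was present in 5 of 20 members that rose in KI kidneys (25%), namely Cyp4v3, Gstp1, Gstp3, Sult2b1 and Ugt2b37, in 0 of 33 that fell, in 4 of 16 that did not pass (25%), Gstp2 among them, and in 18.5% of 27025 genes with a promoter window. GCGTG was present in 8 of 20 that rose (40%), in 7 of 33 that fell (21.2%), in 4 of 16 that did not pass (25%) and in 30.9% of all genes. The E-box core CACGTG, which contains ACGTG, was present in 2 of 121 members (1.65%), Cyp4v3 and Cyp2j6, against 6.86% of all genes. The other motifs searched on both strands were TCACGTGA, in 0 of 121 members, TNGCGTG, which contains GCGTG, in 4 (3.31%, against 4.76% of all genes) and TGACNNNGC in 5 (4.13%, against 11.5%). The paper gives the M-box of MiTF/TFE factors as TCAYRTGA, where Y is C or T and R is A or G. Only its TCACGTGA form was searched, so the count of 0 does not cover the other forms. The Gstp3 window printed above holds such a form, TCATGTGA, left in small letters. A window was at hand for 121 of the 144 members, and these matches describe letters in the window only.

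Among the 9 tested SULT genes 3 rose and 3 fell. Sult1d1, which sulfates catecholamines, was at 503, 703, 598 and 491 CPM in Cre(-) and 149, 249.8 and 415 CPM in KI kidneys (log2 fold change -1.08, SE 0.31, adjusted p = 0.0066). Sult1c2 was at 84.6 to 112 CPM and 21.6 to 37.4 CPM (log2 fold change -1.77, SE 0.21). The hydroxysteroid sulfotransferase Sult2a3 was at 0.631 to 1.02 CPM in Cre(-) and at 0 in the 3 KI kidneys, at least 4.73-fold lower when KI is set to a floor of 3 counts per library. Sult2b1, which sulfates cholesterol, was at 1.17, 1.499, 2.45 and 2.15 CPM in Cre(-) and 5.40, 4.95 and 6.11 CPM in KI kidneys (log2 fold change 1.59, SE 0.21). Sult4a1, chiefly a brain form, was at 0.0631 to 0.268 CPM and 0.799 to 1.78 CPM (log2 fold change 3.05, SE 0.49). The phenol sulfotransferase Sult1a1 passed the test (log2 fold change 1.13, SE 0.32) although the groups overlapped, with KI replicate 1 at 28.5 CPM, the other KI kidneys at 89.2 and 93.8 CPM and the controls at 28.7 to 40.3 CPM.

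**Figure D3:**
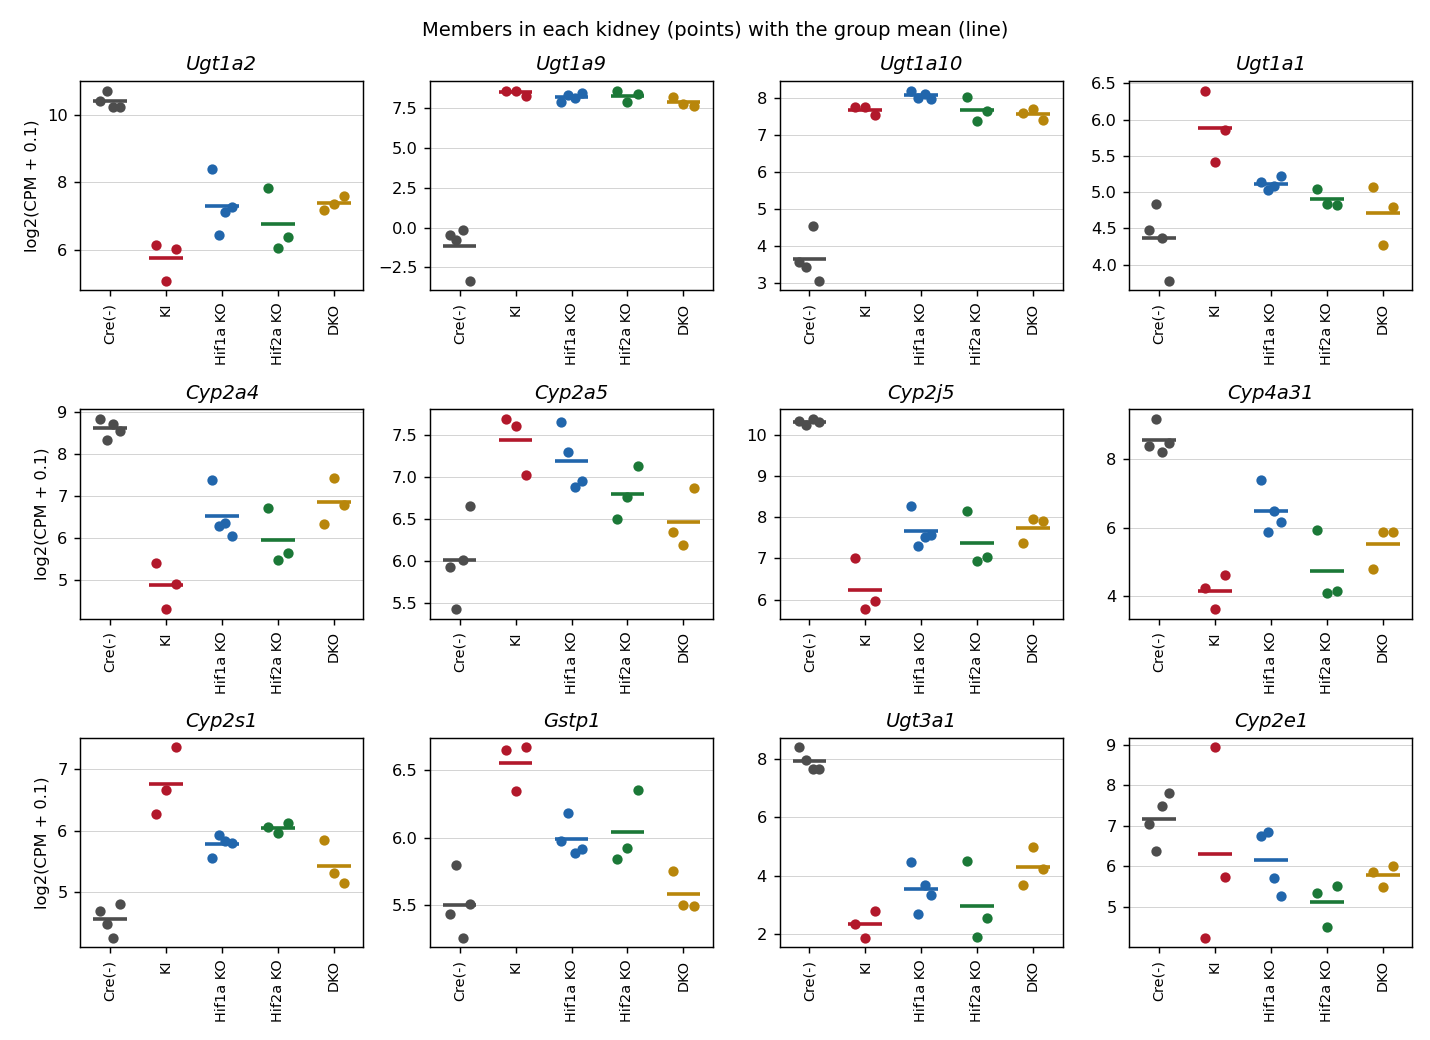
Levels of selected members in each kidney (points, log2(CPM + 0.1) on the vertical axis) by genotype (horizontal axis), with a line at the group mean on that scale. The Cre(-) kidneys lie above all others for Cyp2j5 and Cyp2a4 and below all others for Ugt1a9.

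To ask whether reads exchanged between near-identical paralogs carried these results, the counts of each subfamily were summed and fitted in place of its members. Of 37 subfamily sums, 7 rose and 19 fell in KI kidneys, and 11 did not pass. The sums of Cyp2c (-4.11), Cyp4a (-3.76), Cyp2d (-3.66) and Cyp2j (-3.27) on the log2 scale had the direction of most of their members. The Cyp2a sum fell by 1.14 and the Gstm sum did not pass (-0.12, adjusted p = 0.34). In all, 15 of the 144 members had under 50% unique windows, 10 of them among those tested, against a median of 97.7%.

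Other genes of the pathway were read from the same fit over a fixed list of 70, of which 67 were tested. In KI kidneys 13 rose (against 31.6% of all genes) and 45 fell (against 29.3%). Their median log2 fold change was -0.93, against 0.03 over all genes. Transporters fell in 12 of 14 cases. Slc22a7, an organic anion transporter, was at 213 to 336 CPM in Cre(-) and 0.377 to 0.977 CPM in KI kidneys (log2 fold change -8.93, SE 1.24), and Slc22a8, Slc22a6 and Slc22a2 fell by 5.93, 5.30 and 4.76 on the log2 scale. Of 12 tested regulators 6 fell, among them Hnf4a (-2.04) and Ppara (-1.89), which drive hepatic and renal CYP transcription. The 3 that rose were Ahr (0.82), the antioxidant-response factor Nfe2l2 (0.67) and Keap1 (0.34). The electron donor Por fell by 0.93, from 335 to 373 CPM to 155 to 243 CPM. The genes that rose most were Hmox1, which breaks down heme (2.75), the aldehyde oxidases Aox3 (2.72) and Aox1 (2.12), and the epoxide hydrolase Ephx1 (2.27).

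The next comparisons asked how loss of Hif1a, Hif2a or both altered the members in kidneys that express the fusion. All of them use the same 3 KI kidneys, so their values are given side by side and are not independent of each other. In Hif1a KO against KI kidneys 9 of 86 members (10.5%) passed the test, against 5.44% of all genes, 6 higher (against 2.57%) and 3 lower (against 2.86%). In DKO against KI kidneys 17 (19.8%) passed, against 12.7% of all genes, 8 higher (against 6.53%) and 9 lower (against 6.19%). By limma the split in DKO was 10 and 5 on the log2(TPM + 1) scale and 8 and 3 on the log2(TPM + 0.1) scale, where 7.32% and 2.97%, and 6.56% and 2.37%, of all genes were higher and lower. In Hif2a KO against KI kidneys 0 passed by edgeR, against 1.39% of all genes, with 25 at an unadjusted p under 0.05 (29.1%, against 19.2%), 5 by DESeq2 (against 6.34% of all genes) and 0 by limma. The median log2 fold changes of the members were 0.28 in Hif1a KO, 0.05 in Hif2a KO and 0.10 in DKO against KI kidneys, and those of all genes were 0.00, -0.01 and 0.00.

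These counts moved with single kidneys. In Hif1a KO against KI the count was 5, 4 and 4 without KI replicate 1, 2 or 3, and 3 and 4 without Hif1a KO replicate 1 or 3. In DKO against KI it was 5 and 9 without KI replicate 2 or 3, and 10, 7 and 6 without DKO replicate 1, 2 or 3. In Hif2a KO against KI it was 6 without KI replicate 1 and 1 without KI replicate 2. Ugt2b38 and Cyp2s1 in Hif1a KO, and Cyp2s1, Gstp1, Ugt1a1, Ugt1a7c and Cyp2a4 in DKO against KI kidneys, stayed past the threshold whichever single kidney was left out, and each of the other members named in these comparisons lost it without at least 1 kidney.

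Several members that were low in KI kidneys were higher in the knockout groups. Cyp2a4 was at 166, 77.6, 81.5 and 65.8 CPM in Hif1a KO, at 105, 44.7 and 50.01 CPM in Hif2a KO and at 79.7, 171 and 111 CPM in DKO kidneys, against 19.7 to 42.2 CPM in KI kidneys. No kidney of the 3 knockout groups overlapped with KI, and the log2 fold changes were 1.68 (SE 0.39, adjusted p = 0.024), 1.12 (SE 0.40, adjusted p = 0.147) and 1.98 (SE 0.41, adjusted p = 0.0080). Cyp2j5 was at 307, 157, 184 and 190.0 CPM in Hif1a KO, at 282, 123 and 131 CPM in Hif2a KO and at 165, 248 and 239 CPM in DKO kidneys, against 54.4 to 129 CPM in KI kidneys. Its log2 fold changes were 1.36 (SE 0.34), 1.13 (SE 0.35, adjusted p = 0.103) and 1.41 (SE 0.35), and only the Hif2a KO group overlapped with KI, through its replicate 2.

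Ugt1a2 was at 336, 87.4, 139 and 154 CPM in Hif1a KO, at 228, 66.4 and 83.6 CPM in Hif2a KO and at 146, 163 and 195 CPM in DKO kidneys, against 34.0 to 70.2 CPM in KI kidneys. The Hif1a KO and DKO kidneys lay above KI (log2 fold changes 1.67, SE 0.46, and 1.58, SE 0.47), while 1 Hif2a KO kidney lay within its range (1.16, SE 0.47, adjusted p = 0.194). The share of Ugt1a2 in the cluster was 9.78 to 31.3% in Hif1a KO, 9.79 to 21.6% in Hif2a KO and 17.6 to 27.4% in DKO kidneys. Ugt1a9 was at 192 to 288 CPM in DKO and 303 to 378 CPM in KI kidneys, which did not pass (log2 fold change -0.60, SE 0.26, adjusted p = 0.14).

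Members of this kind that passed in 1 group only are given with both values. Cyp4a31 was at 168, 59.3, 89.8 and 72.0 CPM in Hif1a KO kidneys, above all KI kidneys (log2 fold change 2.39, SE 0.50, adjusted p = 0.017), and at 27.6, 58.9 and 58.5 CPM in DKO kidneys (1.39, SE 0.51, adjusted p = 0.086). Ugt2b38 was at 29.5, 18.4, 12.9 and 16.2 CPM in Hif1a KO and 6.30 to 8.90 CPM in KI kidneys (1.37, SE 0.26, adjusted p = 0.011), with 0.50 (SE 0.27, adjusted p = 0.241) in DKO kidneys. Ugt3a1 was at 12.7, 31.3 and 18.5 CPM in DKO and 3.61 to 6.79 CPM in KI kidneys (2.02, SE 0.60, adjusted p = 0.038), with 1.31 (SE 0.57, adjusted p = 0.196) in Hif1a KO kidneys. The difference between Hif1a KO and DKO kidneys in these genes was not tested. Cyp2b9 passed in both, at 1.41 to 2.23 CPM in Hif1a KO and 1.22 to 2.69 CPM in DKO kidneys (1.26, SE 0.31, and 1.18, SE 0.33), which overlapped with the Cre(-) range of 1.85 to 2.78 CPM. Gstm2, at 62.4 to 89.5 CPM in Cre(-) and 42.4 to 48.4 CPM in KI kidneys, was at 52.6 to 93.0 CPM in DKO kidneys (0.69, SE 0.20 against KI) and there overlapped with Cre(-). The low Cyp4f14 also did, at 0.341, 1.00 and 0.879 CPM in DKO and 0.0539 to 0.285 CPM in KI kidneys (2.25, SE 0.65, adjusted p = 0.036).

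Sult2b1, which was already higher in KI than in Cre(-) kidneys, was higher again in DKO kidneys, at 7.69 to 11.1 CPM (0.82, SE 0.21 against KI).

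A second set was high in KI kidneys and lower in the knockout groups. The macrophage marker sum was lower there too, at 756 to 937 CPM in Hif1a KO, 877 to 1024 CPM in Hif2a KO and 588 to 831 CPM in DKO kidneys, below all KI kidneys. Of the 4 markers, however, 1 was called lower and 1 higher in Hif1a KO and in DKO and 0 in Hif2a KO. Their median log2 fold changes against KI were 0.26 in Hif1a KO, 0.36 in Hif2a KO and 0.23 in DKO. That sum therefore does not stand for its list, and the part of macrophages in these results was not tested. Cyp2s1 was at 47.0, 61.1, 57.0 and 55.6 CPM in Hif1a KO, at 66.7, 62.5 and 69.6 CPM in Hif2a KO and at 57.3, 39.8 and 35.3 CPM in DKO kidneys, against 77.3 to 163 CPM in KI kidneys. All 10 knockout kidneys lay below the 3 KI kidneys and above the 4 Cre(-) kidneys. The log2 fold changes were -1.04 (SE 0.21, adjusted p = 0.014), -0.78 (SE 0.23, adjusted p = 0.086) and -1.36 (SE 0.23, adjusted p = 0.0030). Gstp1 was at 62.8, 72.7, 58.9 and 60.2 CPM in Hif1a KO, at 57.3, 60.6 and 81.6 CPM in Hif2a KO and at 53.9, 45.1 and 45.0 CPM in DKO kidneys, the last within the Cre(-) range of 38.1 to 55.5 CPM. Its log2 fold changes against KI were -0.57 (SE 0.14, adjusted p = 0.030), -0.51 (SE 0.15, adjusted p = 0.093) and -0.98 (SE 0.15, adjusted p = 0.0022).

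Ugt1a1 was at 35.2, 32.5, 33.8 and 37.1 CPM in Hif1a KO, at 33.0, 28.4 and 28.3 CPM in Hif2a KO and at 33.5, 19.2 and 27.6 CPM in DKO kidneys, all below the KI range of 42.7 to 84.5 CPM. The log2 fold changes were -0.83 (SE 0.23, adjusted p = 0.048), -1.04 (SE 0.25, adjusted p = 0.052) and -1.20 (SE 0.25, adjusted p = 0.0088). The Hif2a KO value missed the threshold by edgeR and by limma and passed it by DESeq2, as did those of Sult1a1, Cyp2s1, Gstp1 and Ugt1a7c, all lower. Cyp2a5 was at 81.2, 73.2 and 116 CPM in DKO and 131 to 207 CPM in KI kidneys (-0.97, SE 0.29, adjusted p = 0.0398), and at 117 to 202 CPM in Hif1a KO kidneys, which overlapped with KI (-0.24, SE 0.27). Cyp2a4 and Cyp2a5, whose upstream sequences are near-identical, moved in opposite directions in DKO against KI kidneys, Cyp2a4 being the higher and Cyp2a5 the lower. The remaining members lower in DKO kidneys were Sult1a1 (-1.10, groups overlapping), Gstm6 (-0.91), Ugt1a7c (-0.68), Ugt1a6a (-0.59) and Cyp2j6 (-0.26).

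**Figure D4:**
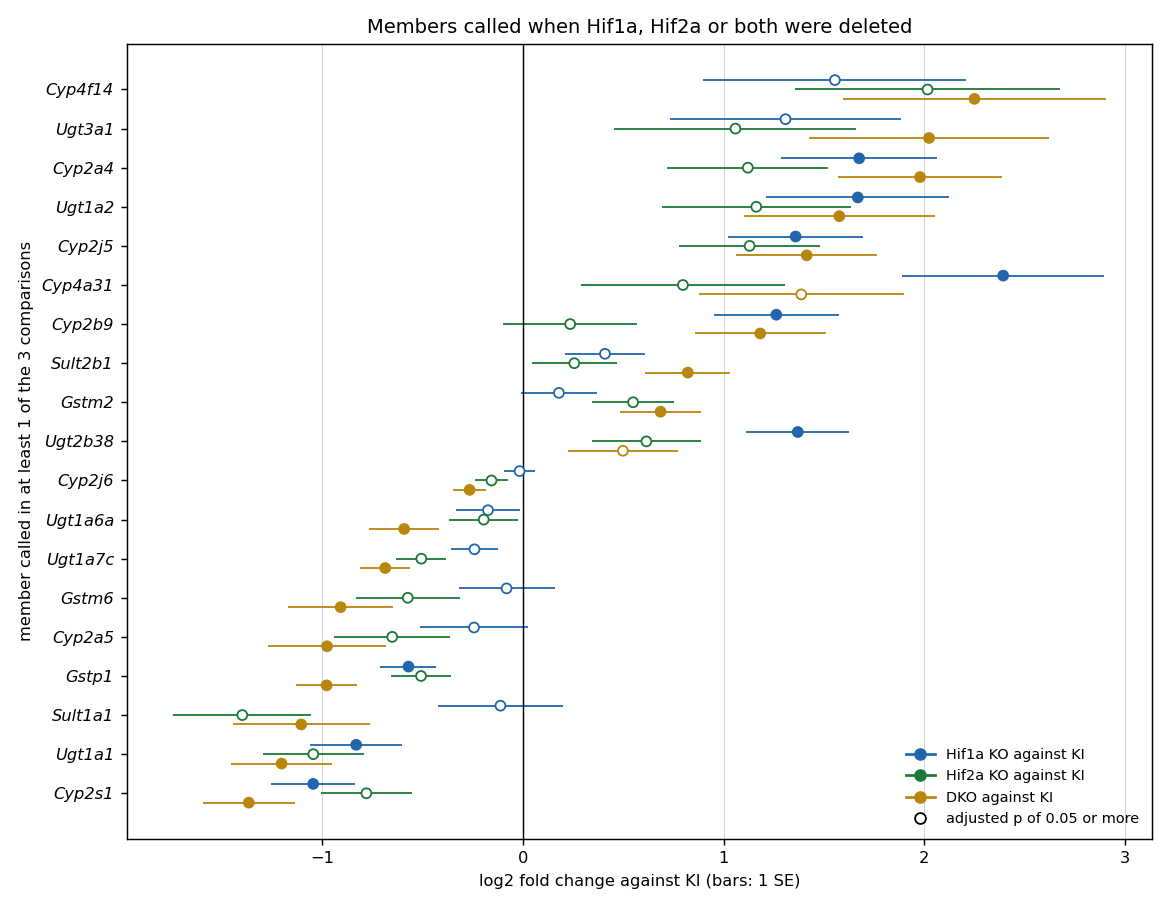
Log2 fold change against the KI kidneys (horizontal axis) of members that passed in any of the Hif1a KO, Hif2a KO and DKO groups, with bars of 1 SE and open points for an adjusted p of 0.05 or more. Cyp2s1, Gstp1 and Ugt1a1 lie left of 0 in all 3 groups and Cyp2a4, Cyp2j5 and Ugt1a2 right of 0, with every Hif2a KO point open.

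The proximal tubule markers moved with the members that were higher in the knockout groups: 4 of 10 were higher in Hif1a KO, 0 of 10 in Hif2a KO and 5 of 10 in DKO kidneys against KI. This was not particular to that segment. Of 3 thick ascending limb markers 2, 1 and 3 were higher (median log2 fold changes 1.48, 1.21 and 1.68). Their sum was at least 1890 CPM in every knockout kidney and 792 to 1425 CPM in KI kidneys. Of 3 podocyte and 3 intercalated cell markers 0 were called in any of the 3 groups. With the marker score as a covariate 0 members passed in Hif1a KO and 0 in DKO against KI kidneys by edgeR, where 0.37% and 0.0882% of all genes did. At shares that low a count of 0 cannot show whether the loss was particular to the members. In the Hif2a KO group replicate 1 had the highest marker sum (2356 CPM, against 720 and 949 CPM) and also the highest Ugt1a2, Cyp2a4 and Cyp2j5. The part of the proximal tubule content in these results was not tested apart from this covariate. Of the subfamily sums, Cyp2j (0.94), Cyp2s (-1.04) and Gstp (-0.58) passed in Hif1a KO kidneys, and Cyp2j (0.97), Sult2b (0.82), Cyp2s (-1.36), Sult1a (-1.10) and Gstp (-0.98) in DKO kidneys.

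In the fixed list of other pathway genes (67 tested), 7 rose and 2 fell in Hif1a KO against KI kidneys, where 5.44% of all genes were called. In Hif2a KO against KI kidneys 0 passed (1.39% of all genes), and in DKO 7 rose and 6 fell (12.7% of all genes called). The transporters Slc22a6, Slc22a8 and Slc22a2 were higher in Hif1a KO (2.10, 2.46 and 1.58 on the log2 scale) and in DKO kidneys (2.32, 2.79 and 2.02). Gclc, the rate-limiting enzyme of glutathione synthesis, was at 974, 932, 1189 and 1348 CPM in Hif1a KO and 399, 462 and 711 CPM in KI kidneys (1.08, SE 0.20, adjusted p = 0.011), and at 332 to 444 CPM in DKO kidneys. Nfe2l2 was lower in Hif1a KO (-0.31) and DKO kidneys (-0.35), as was Ugp2, which supplies UDP-glucose (-0.62 and -0.74). Hmox1 (-1.31) and the efflux pump Abcc2 (-1.06) were lower in DKO kidneys.

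Between Hif1a KO and Hif2a KO kidneys 0 of 86 members passed by edgeR, against 0.429% of all genes. At an unadjusted p under 0.05 there were 11, all higher in Hif1a KO (12.8%, against 7.99% of all genes higher and 14.9% in either direction), with 3 by DESeq2, which called 3.43% of all genes, and 0 by limma. The 3 were Sult1a1, Sult1b1 and Sult1d1. Sult1d1 was at 445, 374, 367 and 390.5 CPM in Hif1a KO and 231, 142 and 105 CPM in Hif2a KO kidneys (log2 fold change 1.305, adjusted p = 0.082 by edgeR). Sult1a1 was at 54.7 to 76.5 CPM and 21.2 to 34.4 CPM (1.29, adjusted p = 0.093). The groups did not overlap for either gene. Without Hif2a KO replicate 1 the count of members past the threshold was 4.

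Against the Cre(-) kidneys each knockout group stayed apart. In Hif1a KO 66 of 86 members passed, against 61.9% of all genes, 22 higher and 44 lower (against 31.9% and 30.1%). In Hif2a KO 65 passed, against 61.9% of all genes, 18 higher and 47 lower (against 32% and 29.9%). In DKO 60 passed, against 58.3% of all genes, 15 higher and 45 lower (against 30.4% and 27.9%). On the log2(TPM + 1) scale with limma the splits were 29 and 35, 27 and 38, and 29 and 37. On that scale the shares of all genes higher and lower were 53.3% and 14% in Hif1a KO, 56.4% and 12.4% in Hif2a KO and 59% and 10.8% in DKO kidneys. Gstp1 in DKO kidneys (45.0 to 53.9 CPM) lay within its Cre(-) range, and Sult1a1 overlapped with it at 24.1 to 44.7 and 28.7 to 40.3 CPM. Cyp2j5 stayed apart at 165 to 248 CPM in DKO and 1203 to 1332 CPM in Cre(-) kidneys. All of these comparisons share the 4 Cre(-) kidneys.

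Some members differ by sex in mouse kidney, and the labels did not give the sex. Ddx3y and Eif2s3y, expressed from the Y chromosome, were at or under 0.202 CPM in all 17 libraries, whereas Kdm5d was listed at 16.2 to 19.4 CPM in Cre(-) and 7.54 to 14.4 CPM in the other kidneys. With Uty, the 4 listed Y-linked genes summed to 16.7 to 20.1 CPM in Cre(-) and 8.56 to 12.0 CPM in KI kidneys. Most of that sum was Kdm5d, so it does not stand for its list. Of the 7 listed members known to differ by sex, Cyp4a12a, Cyp4a14, Cyp4b1 and Cyp2d9 fell in KI kidneys, Cyp2j13 rose, and Cyp4a12b and Cyp2e1 did not pass. Cyp4a12a was at 3.16 to 13.3 CPM in Cre(-) and 1.55 to 1.88 CPM in KI kidneys (log2 fold change -2.39, SE 0.39).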

How the data were processed

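RNA from 17 mouse kidneys was read with a stranded mRNA kit as 75-nt reads. The authors aligned the trimmed reads with STAR (2.7.9a, after Trim Galore 0.6.6 and cutadapt 2.5, per the submitters' processing notes) and used RSEM to deposit expected counts per transcript. TPM values were also deposited by the authors, per transcript. The sources name a human genome build beside GRCm38, whereas the deposited rows are mouse transcripts. Of 119353 transcripts, 116770 (97.8%) matched GENCODE identifiers of GRCm38 and held 99.0 to 99.2% of the counts, and the 2583 others were left out.

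Expected counts were summed per gene and rounded, and TPM values were summed per gene. All 17 libraries entered 1 edgeR (4.0.16) quasi-likelihood fit with TMM factors and filterByExpr (minimum count 10), with Benjamini-Hochberg adjustment over all tested genes and a threshold of 0.05. SE is the absolute log2 fold change divided by the square root of F. Alternatives used DESeq2 (1.42.0), DESeq2 size factors, no filter, fits of the 2 groups, a replicate block, limma (3.58.1) on log2(TPM + 1) and log2(TPM + 0.1), an absolute log2 fold change of at least 1, the proximal tubule score, Cre(-) replicates 1 and 2 or 3 and 4 only, and leaving out each kidney. Libraries of 16504419 to 24668827 counts set the precision, which for low genes is that of counting.

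On counts simulated for KI against Cre(-) over 17011 genes, edgeR called 151, of which 3.3% were false, and found 55% of 2-fold and 91% of 4-fold changes. The simulation changed only a small part of the genes and drew counts from the model that edgeR had fitted. In the data 60.9% of genes were called, so it does not test scaling or the false share under so wide a change. Groups came from the labels. The members and lists were chosen with earlier results of these data known. Named members were the 10 highest in Cre(-) kidneys by TPM, up to 12 in each direction in KI against Cre(-) and up to 8 in each other comparison (called, without overlap, at least 1 TPM), a fixed list, and up to 6 called against their subfamily. Pathway genes were named as the 4 changing most in each direction or when called in a knockout group. Cyp4f14 and Sult1a1 in the Hif comparisons, and other members of a named subfamily, were also given after their values were seen. Sequences came from RefSeq, and motifs and alignments were computed in Python 3.11.15 with Biopython 1.88.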

Additional observations from a re-analysis of the deposited data

Results flagged for a closer look

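In groups of 4 kidneys, 7 of 110 sets of values (55 named members in each of 2 groups) held 1 kidney whose gap to the others was above Dixon's 95% critical value, which chance gives in about 1 in 20 sets. Cre(-) replicate 2 was at 1820 CPM for Cyp4a14 (others 576 to 658 CPM) and at 1486 CPM for Cyp4a10 (others 495 to 541 CPM). Cre(-) replicate 4 was at 89.5 CPM for Gstm2 (others 62.4 to 65.5 CPM). Hif1a KO replicate 1 was at 166 CPM for Cyp2a4 (others 65.8 to 81.5 CPM), at 5.74 CPM for Cyp2d12 (others 2.15 to 2.44 CPM) and at 17.3 CPM for Gstk1 (others 8.42 to 9.41 CPM), and it also had the highest proximal tubule marker sum of its group (2658 CPM). Hif1a KO replicate 2 was at 4.52 CPM for Cyp4a12a (others 2.99 to 3.23 CPM).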

How the results depend on the processing

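With the proximal tubule score as a covariate the count of members called was 2 in KI, 3 in Hif1a KO, 4 in Hif2a KO and 7 in DKO against Cre(-) kidneys, 0 in Hif1a KO and 0 in DKO against KI, and 1 in Hif1a KO against Hif2a KO kidneys. Of all genes it left 0.911, 3.67, 3.23 and 6.04% against Cre(-), 0.37 and 0.0882% against KI, and 0.5% between the single knockouts. The median log2 fold change of the members turned to 0.20 in KI and 0.20 in Hif1a KO against Cre(-), and to -0.053, -0.25 and -0.27 in Hif1a KO, Hif2a KO and DKO against KI kidneys. In KI against Cre(-) kidneys this covariate turned the log2 fold changes of Cyp2c69 (4.64), Cyp4a14 (3.16), Cyp2d9 (2.07), Cyp4a10 (2.07), Cyp2d12 (1.41), Cyp2d26 (1.28), Cyp2j11 (0.90), Ugt3a1 (0.81), Cyp4b1 (0.54), Ugt3a2 (0.52), Cyp2a4 (0.33), Cyp4a31 (0.23), Sult1d1 (0.20), Gstt1 (0.19), Gsta2 (0.18), Cyp2u1 (0.16), Ugt1a2 (0.094) and Sult1c2 (0.015) above 0, and those of Ugt1a6b (-2.04), Ugt2b37 (-1.40), Gstm6 (-1.11) and Cyp2j13 (-0.97) below 0. Ugt3a1 in DKO against KI kidneys was -0.058. The score separates Cre(-) from all other kidneys, and the cause of these changes was not tested.

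On the log2(TPM + 0.1) and log2(TPM + 1) scales, where the median of all genes was itself higher, Ugt1a7c was 0.38 and 0.38, Cyp2j6 0.42 and 0.40, and Cyp1b1 0.44 and 0.42. Fits of the 2 groups called 2 members in Hif1a KO and 9 in DKO against KI, and 1 in Hif1a KO against Hif2a KO. DESeq2 called 5 in Hif2a KO against KI and 3 in Hif1a KO against Hif2a KO (6.34 and 3.43% of all genes), an absolute log2 fold change of at least 1 left 9 in DKO against KI, and limma on log2(TPM + 0.1) called 11 there. Same-numbered kidneys were not paired: their deviations correlated at -0.22 to 0.25 (median -0.03, 31 pairs), against a median of 0.01 over 84 other pairs. With the replicate block 67 members were called in KI against Cre(-), 5 in Hif1a KO, 0 in Hif2a KO and 12 in DKO against KI.

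Leaving out each kidney gave 63 to 66 calls in KI, 58 to 64 in Hif1a KO, 61 to 65 in Hif2a KO and 56 to 63 in DKO against Cre(-), 3 to 9 in Hif1a KO, 0 to 6 in Hif2a KO and 5 to 13 in DKO against KI, and 0 to 4 in Hif1a KO against Hif2a KO. Cyp2e1 in KI against Cre(-) ranged from -2.10 (without KI replicate 2) to 0.82. For the named members, 613 values under other settings kept direction and side of the threshold, 94 lost the call, 5 gained one and 29 reversed. With 1 kidney left out, 447 kept both, 89 lost the call, 1 gained one and 1 reversed. Xist as a covariate was not run, since no transcript of it was matched. Members under about 1 CPM are limited by counting.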
